A study of Mus musculus with 35 samples.

Results

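The genes described here are 34 genes of glycolysis and of the response to low oxygen, measured by RNA-seq in cranial neural crest cells sorted from mouse embryos at E12.5, in midgestation. They were chosen by name, with no measured value, out of the 23366 genes of the count table. They comprise 17 glycolytic enzymes, 4 genes of glucose and lactate transport and pyruvate entry, 4 subunits and prolyl hydroxylases of the HIF system, and 9 other genes that respond to hypoxia. The filter on low counts was passed by 33 of the 34, among 14521 genes tested; Car9, a carbonic anhydrase at the cell surface, did not pass it. The study concerns UTX (Kdm6a), an X-linked histone demethylase that is mutated in Kabuki syndrome, and its loss from the neural crest. Each of the 3 genotypes had 2 libraries. The mko libraries came from males with Utx fl/y and Wnt1-Cre. The fko libraries came from females with Utx fl/fl and Wnt1-Cre, and the wt libraries from males that carried Wnt1-Cre with an unmodified Utx gene. All groups, wt included, carried Wnt1-Cre and the Rosa-Tomato reporter, and living Tomato-positive cells were sorted from the head. Wnt1-Cre marks the neural crest and also parts of the dorsal midbrain and hindbrain, so a sort on Tomato can hold neural cells as well. The fko embryos differed from wt in sex as well as in Utx, and for fko against wt these cannot be told apart. Nothing in the labels says whether libraries of a group came from separate embryos, so the p-values measure the spread between these libraries, which may be technical.

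Glycolysis splits glucose into pyruvate through a chain of cytosolic enzymes, and lactate dehydrogenase turns pyruvate into lactate, which restores the NAD+ that the chain consumes. When oxygen is low, the prolyl hydroxylases that mark HIF alpha subunits for destruction slow down, and the stabilised subunits pair with ARNT on DNA and raise transcription of glycolytic enzymes, glucose and lactate transporters, Pdk1, Vegfa and many other genes. Proliferating embryonic cells, neural crest cells among them, are known to use glycolysis strongly even where oxygen is present.

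Each library had 14513993 to 16350892 reads on genes, and levels are given as CPM, the read count of a gene relative to the library size after scaling by TMM (trimmed mean of M values). Within each genotype the libraries differed in the share of uniquely placed reads that fell outside genes. That share was 21.9% in mko2, 22.0% in fko1 and 21.3% in wt1, against 27.6% in mko1, 27.5% in fko2 and 27.8% in wt2. These library sets cross the genotypes evenly, and each comparison is therefore given by edgeR's quasi-likelihood test in a fit of 3 group means and again with the set as a term. The set term was adopted with earlier results of these data known. Kdm6a was at 40.5 and 31.9 CPM in the mko libraries, 52.8 and 62.4 CPM in the fko libraries, and 45.6 and 51.5 CPM in the wt libraries; counts over a whole gene do not check the deletion of single exons. Xist was at 1588 to 2271 CPM in fko libraries, against 0.696 to 1.66 CPM in the other 4, and Uty had 0 to 0.646 CPM in fko libraries, against 33.3 to 39.4 CPM in the others, as the labelled sexes give. Rn45s, the ribosomal RNA precursor, was at 32353 to 50787 CPM in mko, 29796 to 35282 CPM in fko and 3557 to 9022 CPM in wt libraries. The 16 crest and mesenchyme markers were all detected, and their summed level was 2331 to 2529 CPM in mko, 2298 to 2367 CPM in fko and 1971 to 2120 CPM in wt libraries. The sum was thus higher in all 4 knockout libraries, which does not speak for each marker. In the mean of the knockouts against wt 15 of the 16 had a positive fold change, with a median of 0.23 on the log2 scale, where 51.1% of all genes were positive. In the fit of 3 group means 0 of the 16 passed. With the set as a term 6 rose and 0 fell, beside 16.4% and 16.3% of all genes. In bulk samples such as these, fewer cells of a type and less RNA per cell cannot be told apart.

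HIF binds the core letters ACGTG or GCGTG, and the region before the start site is shown for 5 members whose behaviour is compared below. Windows of 250 bases before the start came from RefSeq (GRCm38.p6, a later build than the mm9 build of the counts) and were found for 32 of the 34 members, in 45 windows. Slc2a3 and Ndrg1 were not among them. Each sequence runs 5′ to 3′ on the gene's strand, and capitals mark ACGTG or GCGTG on either strand, including where 2 matches overlap in CACGTG.
Ldha, chr7:46845554-46845803, plus strand: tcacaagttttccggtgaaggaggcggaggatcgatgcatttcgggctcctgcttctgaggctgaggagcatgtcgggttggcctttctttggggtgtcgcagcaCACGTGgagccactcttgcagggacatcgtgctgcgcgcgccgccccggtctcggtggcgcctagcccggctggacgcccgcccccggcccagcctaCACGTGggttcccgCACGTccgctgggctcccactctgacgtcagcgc
Ldhb, chr6:142507958-142508207, minus strand: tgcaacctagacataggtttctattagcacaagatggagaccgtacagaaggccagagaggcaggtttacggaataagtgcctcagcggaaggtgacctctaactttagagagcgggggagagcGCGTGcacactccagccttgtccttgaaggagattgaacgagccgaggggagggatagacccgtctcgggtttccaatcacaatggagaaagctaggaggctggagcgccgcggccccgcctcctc
Pgk1, chrX:106186850-106187099, plus strand: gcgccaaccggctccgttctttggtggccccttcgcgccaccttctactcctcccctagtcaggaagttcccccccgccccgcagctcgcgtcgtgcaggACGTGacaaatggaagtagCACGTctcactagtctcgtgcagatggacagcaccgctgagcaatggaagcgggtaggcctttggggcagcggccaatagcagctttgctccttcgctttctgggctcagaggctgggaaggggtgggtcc
Slc16a3, chr11:120948817-120949066, plus strand: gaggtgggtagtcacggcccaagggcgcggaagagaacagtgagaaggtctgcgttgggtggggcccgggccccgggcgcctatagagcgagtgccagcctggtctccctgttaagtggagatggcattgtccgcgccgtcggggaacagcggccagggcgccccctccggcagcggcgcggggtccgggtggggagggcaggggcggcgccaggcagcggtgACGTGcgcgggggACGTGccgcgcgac
Hif3a, chr7:17062428-17062677, minus strand: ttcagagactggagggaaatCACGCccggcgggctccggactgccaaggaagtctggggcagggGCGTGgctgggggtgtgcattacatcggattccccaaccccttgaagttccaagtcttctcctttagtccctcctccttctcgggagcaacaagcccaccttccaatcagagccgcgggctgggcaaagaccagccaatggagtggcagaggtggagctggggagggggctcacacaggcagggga
The window of Ldha shown held 5 matches to ACGTG, with CACGTG in 2 places, and that of Ldhb held 1 match to GCGTG. Another RefSeq start of Ldha, not shown, has a window with 0 matches to ACGTG and 1 to GCGTG. Those of Pgk1 and Slc16a3 held 2 matches to ACGTG each, and that of Hif3a held 2 to GCGTG. One or both motifs stood in 36 of the 45 member windows (80%), against 38.6% of all 32841 windows of the same length. ACGTG alone stood in 46.7% of member windows and in 16.6% of all windows, and GCGTG in 55.6% and 28.2%. Windows of a gene can overlap and count the same site more than once, as for Eno1, Aldoa and Pfkm. The members were listed as genes of glycolysis and of the response to low oxygen, so more of these motifs could come with that choice. Base composition was not matched, and the difference was not tested. Members that shifted little in the mean of the knockouts hold them too, Hif1a with 3 matches to ACGTG, of which 2 overlap in 1 CACGTG, and Ddit4 with 1 of each. Tpi1, Gpi1 and Eno2 hold none in this window. A match is a run of letters, not a bound site.

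Most members had positive fold changes in both knockouts, but few passed the test. In the fit of 3 group means, 0 of 33 rose and 1 fell in fko against wt (Hif3a), where 0.303% of all genes rose and 0.82% fell. In mko against wt 0 of 33 passed (2.34% of all genes), with DESeq2 also at 0 and 12 of 33 under an unadjusted p of 0.05 (20.2% of all genes). In the mean of the knockouts against wt 0 rose and 2 fell, Hif3a and Eno2, where 1.07% of all genes rose and 4.04% fell. Unadjusted p-values under 0.05 were held by 15 of 33 members in fko against wt and by 15 of 33 in the mean of the knockouts, against 19.6% and 26.1% of all genes. The fold change was positive for 24 of 33 members in fko, 27 in mko and 27 in the mean of the knockouts, where 51.3%, 51.1% and 51.1% of all genes were positive. The median log2 fold change of the glycolytic enzymes was 0.40 in fko and 0.24 in mko, that of the other members 0.18 and 0.21, and that of all genes 0.01 in each. The enzymes' median in fko is the value of Eno1, whose direction depends on a gene copy counted in a row of its own, Gm5506; with the counts of both summed, the median was 0.25 in fko and 0.24 in mko. The fko and mko comparisons use the same wt libraries, so their likeness is not independent evidence.

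**Figure D1:**
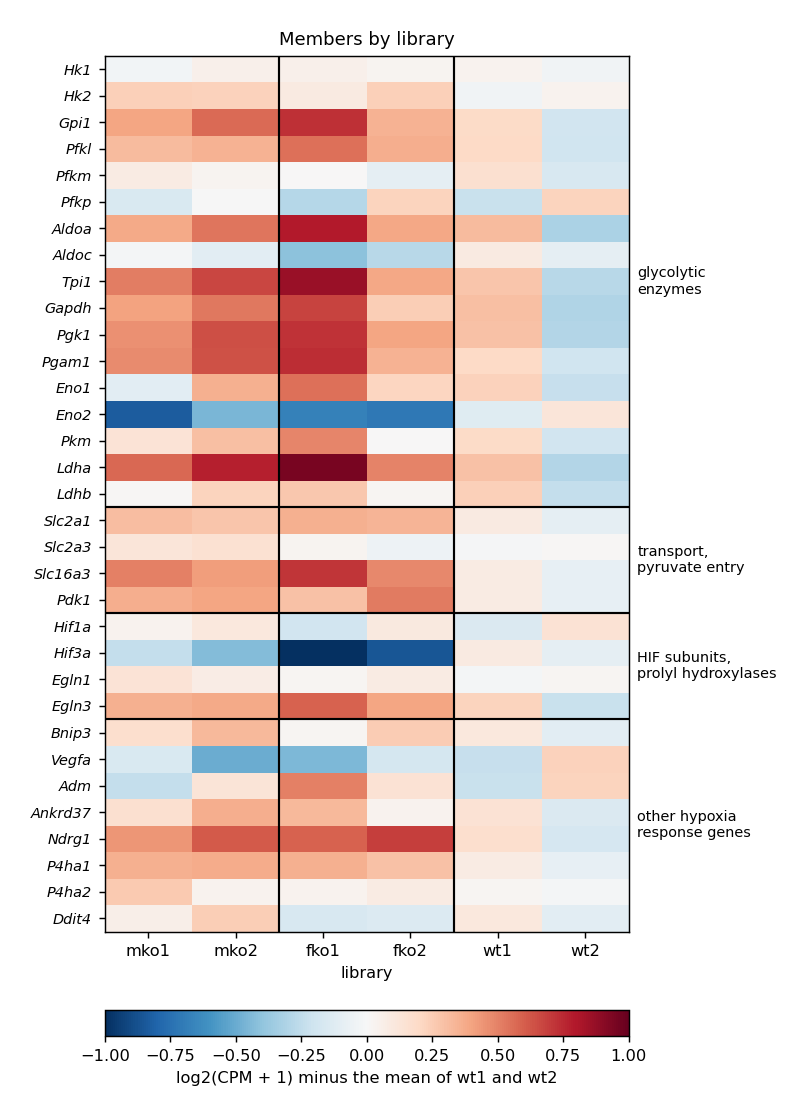
Level of the 33 members tested in each of the 6 libraries, as log2(CPM + 1) minus the mean of wt1 and wt2; red is above and blue below that mean, and lines separate genotypes and the classes of genes. Most enzymes between Gpi1 and Ldha are red in all 4 knockout libraries and deepest in fko1, while Eno2 and Hif3a are blue in all 4.

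With the set as a term, 13 of 33 members (39.4%) were higher in the mean of the knockouts against wt and 3 (9.09%) were lower, where 16.4% of all genes were higher and 16.3% lower. The counts were 13 higher and 3 lower in fko against wt, beside 12.2% and 11.1% of all genes, and 13 higher and 2 lower in mko against wt, beside 12% and 12.7% of all genes. The fold changes hardly moved with the term, and their standard errors shrank, as the plot of fold changes under both fits shows. This fit leaves 2 residual degrees of freedom. It rests much on wt2, without which 5 members passed in the mean of the knockouts (Gpi1, Tpi1, Pgam1 and Ldha higher, Hif3a lower; 9.28% of all genes), 2 in fko against wt and 3 in mko against wt. The number that passed in fko against wt also fell without fko1 or without fko2. Except for the mean of the knockouts without wt2, the shares of all genes in these fits are not given. These falls therefore cannot be called particular to the members.

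Taken library by library, 16 of the 34 members were higher in all 4 knockout libraries than in both wt libraries, 2 were lower in all 4 and 16 overlapped; among all genes tested, 18.8% lay wholly higher and 20.1% wholly lower. The 16 were 8 enzymes (Hk2, Gpi1, Pfkl, Aldoa, Tpi1, Pgk1, Pgam1 and Ldha) and 8 of the other members (Slc2a1, Slc16a3, Pdk1, Egln1, Egln3, Ndrg1, P4ha1 and P4ha2). Egln1 and P4ha2 cleared wt narrowly, with 76.7 CPM in fko1 against 76.7 CPM in wt2 for Egln1 and 31.2 CPM in fko1 against 30.9 CPM in wt1 for P4ha2.

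Of the 17 enzymes, Hk2, Gpi1, Pfkl, Aldoa, Tpi1, Pgk1, Pgam1 and Ldha lay above wt in all 4 knockout libraries. No enzyme rose in the fit of 3 group means, and 8 of 17 rose with the set as a term, in fko and in mko alike, beside 12.2% of all genes in fko and 12% in mko. Gpi1, which turns glucose 6-phosphate into fructose 6-phosphate, had 263 and 297 CPM in the mko libraries, 332 and 254 CPM in the fko libraries, and 228 and 175 CPM in the wt libraries. Pfkl, the liver-type phosphofructokinase that commits sugar to the chain, had 151 and 154 CPM in the mko libraries, 177 and 155 CPM in the fko libraries, and 139 and 105 CPM in the wt libraries. For both genes every knockout library was above wt1, the higher of the wt libraries. The log2 fold change of Gpi1 was 0.54 ± 0.19 in fko and 0.47 ± 0.19 in mko (± SE; edgeR adjusted p = 0.185 and 0.209), and with the set term the adjusted p was 0.00539 and 0.00641. For Pfkl it was 0.45 ± 0.16 in fko and 0.32 ± 0.16 in mko, with edgeR adjusted p = 0.013 and 0.0363 with the set term. Hk1 and Hk2, the hexokinases that trap glucose in the cell, did not pass in either fit: their levels ranged over 65.5 to 69.4 CPM in the knockouts and 65.4 to 68.5 CPM in wt for Hk1, and 39.1 to 43.4 CPM in the knockouts and 35.8 to 37.6 CPM in wt for Hk2.

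Aldoa, the aldolase that cleaves the sugar bisphosphate, had 325 and 364 CPM in the mko libraries, 435 and 327 CPM in the fko libraries, and 311 and 201 CPM in the wt libraries. Tpi1, which interconverts the triose phosphates, had 394 and 437 CPM in the mko libraries, 502 and 361 CPM in the fko libraries, and 334 and 227 CPM in the wt libraries. Aldoa and Tpi1 were highest in fko1 and lowest in wt2, and wt1 lay just below the lowest knockout library. Gapdh, which oxidises glyceraldehyde 3-phosphate, had 597 and 652 CPM in the mko libraries, 725 and 537 CPM in the fko libraries, and 556 and 368 CPM in the wt libraries, and here wt1 exceeded fko2, so the groups overlapped. Pgk1, the X-linked kinase of the first ATP-forming step, had 397 and 451 CPM in the mko libraries, 477 and 379 CPM in the fko libraries, and 353 and 236 CPM in the wt libraries. Pgam1, the mutase that follows it, had 407 and 456 CPM in the mko libraries, 491 and 375 CPM in the fko libraries, and 338 and 255 CPM in the wt libraries. The mean of the knockouts lay above wt by 0.59 ± 0.20 on the log2 scale for Tpi1, 0.50 ± 0.20 for Aldoa, 0.44 ± 0.20 for Gapdh, 0.53 ± 0.19 for Pgk1 and 0.54 ± 0.17 for Pgam1. Under edgeR the adjusted p of that contrast was 0.103 to 0.199 for these 5 genes, and 0.00186 to 0.00791 with the set term.

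Ldha, the lactate dehydrogenase subunit of glycolytic tissues, had the largest positive fold change of the 17 enzymes in fko, mko and their mean. Its level was 520.4 and 601 CPM in the mko libraries, 675 and 494 CPM in the fko libraries, and 429 and 286 CPM in the wt libraries. Every knockout library stood above wt1, and fko1 stood far above fko2. Means were 561 ± 56.8 CPM in mko, 585 ± 128 CPM in fko and 357 ± 101 CPM in wt (SD, n = 2 each). The log2 fold change was 0.71 ± 0.23 in fko against wt and 0.65 ± 0.23 in mko against wt, with edgeR adjusted p = 0.174 and 0.174, or 0.00402 and 0.00344 with the set term. Left without wt2, Ldha still passed with the set term in fko, in mko and in their mean. Pkm, pyruvate kinase of muscle and growing cells, had 1181 and 1320.5 CPM in the mko libraries, 1506 and 1076 CPM in the fko libraries, and 1224 and 943 CPM in the wt libraries, and wt1 lay inside the range of the knockouts. Pkm did not pass in either fit (edgeR adjusted p = 0.454 in the mean of the knockouts, 0.0653 with the set term). Counts over the whole gene do not separate the Pkm1 and Pkm2 transcripts. Processed copies of Ldha, Pgk1, Pgam1, Gapdh and Aldoa are annotated as pseudogenes in RefSeq but have no row of their own in the count table, so reads that match more than 1 copy are uncertain for these genes.

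**Figure D2:**
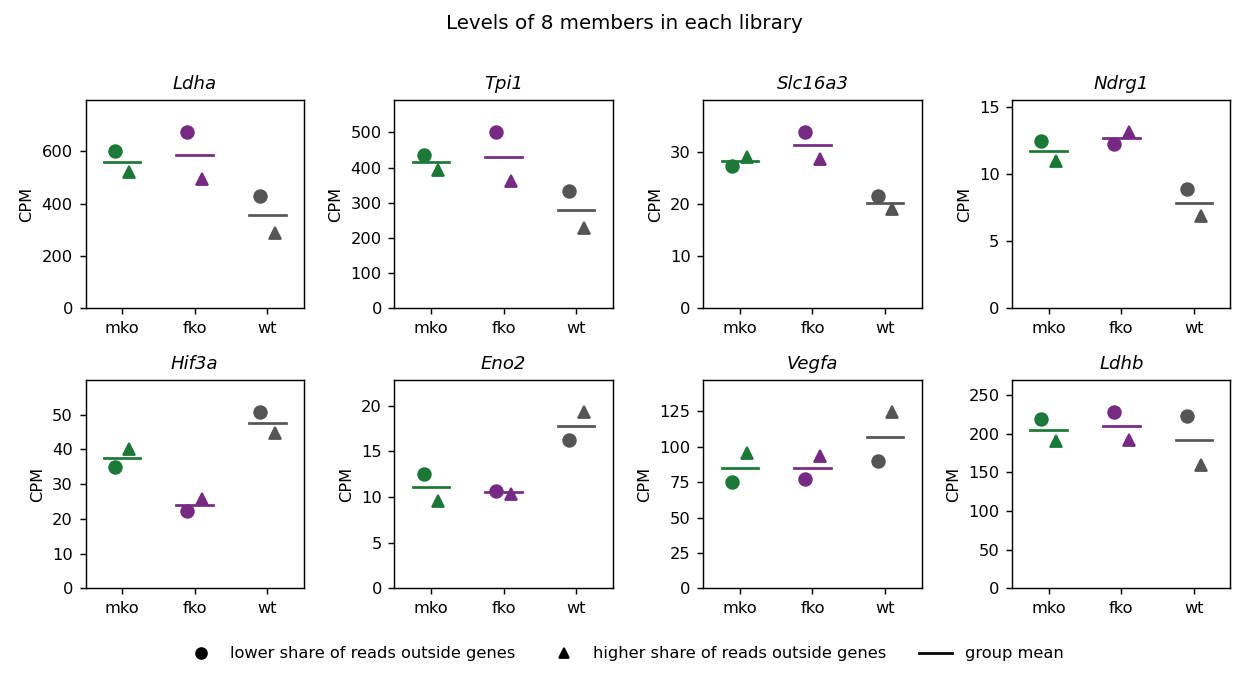
CPM of 8 members in each library of mko, fko and wt (2 points each); the marker shape gives the set of the library by its share of reads outside genes, and the line is the group mean. Ldha and Tpi1 are higher in the circle of every genotype, Vegfa is higher in the triangle of every genotype, and Hif3a and Eno2 lie below wt in all 4 knockout libraries.

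The enzymes also followed the library sets inside each genotype. In 12 of 17 enzymes the library with fewer reads outside genes was the higher one in mko, in fko and in wt, as it was for 3 of the 17 other members and for 26.9% of all genes tested. The set term itself passed the test for 10 of 17 enzymes, all higher in the set with fewer reads outside genes, and for 1 of 16 other members, Vegfa, which was lower there, with a coefficient of -0.37 ± 0.07. Among all genes 8.1% were higher and 6.28% lower in that set. For Ldha the set coefficient was 0.41 ± 0.08 on the log2 scale, beside a fold change of 0.70 ± 0.09 for the mean of the knockouts in the same fit. What separates the sets, and its part in the genotype differences, was not tested.

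Among isozymes, Ldha and Pfkl took a larger share of their families' counts in all 4 knockout libraries than in wt. Ldha took 73.3% and 73.2% of the Ldha and Ldhb counts in mko, 74.8% and 72.1% in fko, and 65.8% and 64.2% in wt. The lowest knockout share, fko2, had an exact 95% binomial interval of 71.2% to 73.0%, and the highest wt share, wt1, one of 64.8% to 66.7%; intervals cover counting error only. Ldhb, the subunit of oxidative tissues, itself had 189.8 and 219 CPM in the mko libraries, 228 and 191 CPM in the fko libraries, and 223 and 159 CPM in the wt libraries and overlapped. In fko and in wt the Ldha share was higher in the library with fewer reads outside genes, and in mko the libraries differed by less than their intervals. Pfkl took 59.2% ± 0.728 of phosphofructokinase counts in mko, 62.6% ± 1.99 in fko and 54.1% ± 2.02 in wt (SD, n = 2 each), and Pfkm, the muscle type, 36.5% ± 1.05 in mko, 33.0% ± 0.544 in fko and 40.5% ± 0.0566 in wt. In both, no knockout library overlapped wt. The platelet type Pfkp overlapped, at 3.39% to 5.43% in the knockouts and 3.95% to 6.89% in wt. Hk2 took 36.1% to 39.8% of hexokinase counts in the knockouts and 34.3% to 36.5% in wt, and overlapped. Aldoc, the brain aldolase, took 0.507% to 0.974% of aldolase counts in the knockouts and 1.12% to 1.47% in wt. Aldoa, the rest of that family, therefore also took a larger share in all 4 knockout libraries. Shares weigh isozymes by transcript length as well as abundance, so they are compared between libraries and not between families.

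**Figure D3:**
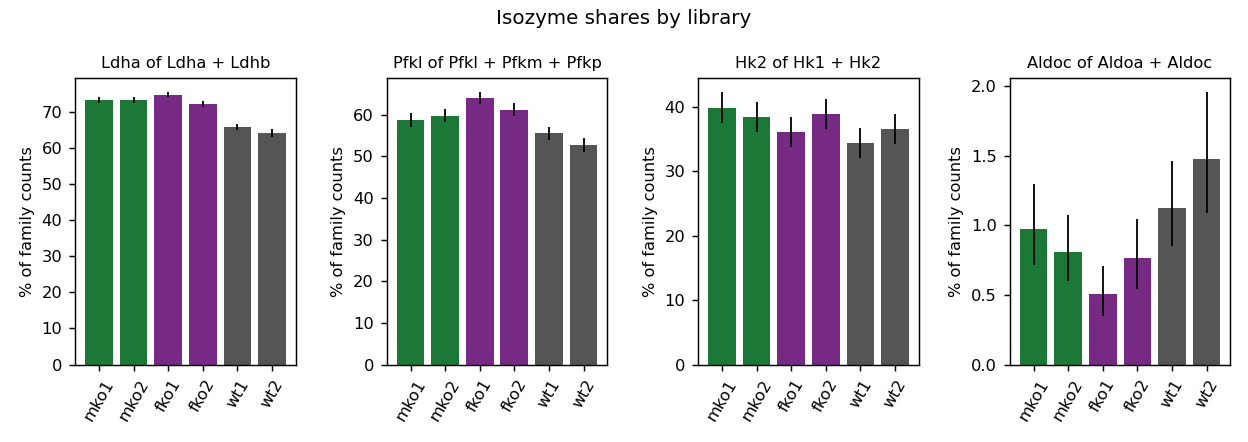
Share of a family's counts held by 1 isozyme in each library, with exact 95% binomial intervals that cover counting error only. The Ldha share is 72.1% to 74.8% in the knockouts and 64.2% to 65.8% in wt, and the Pfkl share 58.7% to 64.0% in the knockouts and 52.7% to 55.6% in wt; the Hk2 bars overlap.

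Of the 17 enzymes 1 (5.88%) fell in the mean of the knockouts in the fit of 3 group means, beside 4.04% of all genes. A negative fold change was held by 4 of the 17, Eno2, Aldoc, Pfkp and Pfkm, where 51.1% of all genes were positive. Eno2, the neuronal enolase, had 9.53 and 12.6 CPM in the mko libraries, 10.7 and 10.4 CPM in the fko libraries, and 16.2 and 19.3 CPM in the wt libraries, so both wt libraries lay above all 4 knockout libraries. It fell in the mean of the knockouts by 0.72 ± 0.16 on the log2 scale (edgeR adjusted p = 0.0422), with -0.75 ± 0.19 in fko and -0.68 ± 0.19 in mko that did not pass on their own (adjusted p = 0.11 and 0.105) and did so with the set term (0.0176 and 0.0227). The call was lost without wt2, mko1 or mko2 and without the filter on low counts. The 10 neuronal markers, all detected, summed to 1408 to 2422 CPM in mko, 1908 to 2010 CPM in fko and 2146 to 2380 CPM in wt libraries and overlapped. In the mean of the knockouts 3 of the 10 had a positive fold change, with a median of -0.24. Elavl3 fell by 0.94 ± 0.22 (edgeR adjusted p = 0.0446) and Nefl rose by 1.15 ± 0.26 (0.0411). Nefm was positive as well, at 0.81 ± 0.32 in fko and 1.15 ± 0.32 in mko, and passed in neither in the fit of 3 group means. Dcx at -0.93 ± 0.23 and Snap25 at -0.72 ± 0.22 did not pass (edgeR adjusted p = 0.0566 and 0.0984) and did so with the set term (0.00585 and 0.0174). With that term 2 of the 10 rose and 3 fell in the mean of the knockouts, beside 16.4% and 16.3% of all genes. The part of the neuronal markers in the Eno2 difference was not tested. Eno1, the ubiquitous enolase, had only 10.6 and 15.1 CPM in the mko libraries, 17.4 and 13.6 CPM in the fko libraries, and 13.7 and 9.66 CPM in the wt libraries, and the groups overlapped. A separate row for Gm5506, a gene that RefSeq lists as a synonym of Eno1b, had 1.23 and 1.08 CPM in the mko libraries, 1.89 and 1.10 CPM in the fko libraries, and 80.9 and 29.8 CPM in the wt libraries. Added to Eno1, it turned the fold change of the mean of the knockouts to -2.12 ± 0.30 (edgeR adjusted p = 0.00908), against 0.27 ± 0.21 for Eno1 alone, so neither the level nor the direction of Eno1 can be read from these counts. The Eno1 share of the Eno1 and Eno2 counts turned round with it: 53.6% ± 1.24 in mko, 59.2% ± 3.72 in fko and 39.6% ± 8.87 in wt without Gm5506, and 55.8% ± 0.537 in mko, 61.4% ± 4.07 in fko and 76.3% ± 12.9 in wt with it.

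The remaining enzymes did not pass in either fit. Pfkm ranged over 85.0 to 95.5 CPM in the knockouts and 80.7 to 101 CPM in wt, Pfkp over 9.40 to 13.8 CPM in the knockouts and 9.88 to 13.8 CPM in wt, and Aldoc over 2.22 to 3.20 CPM in the knockouts and 3.01 to 3.55 CPM in wt. Aldoc was lowest in fko1, and its log2 fold change was -0.47 ± 0.26 in fko and -0.09 ± 0.25 in mko (edgeR adjusted p = 0.329 and 0.854).

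**Figure D4:**
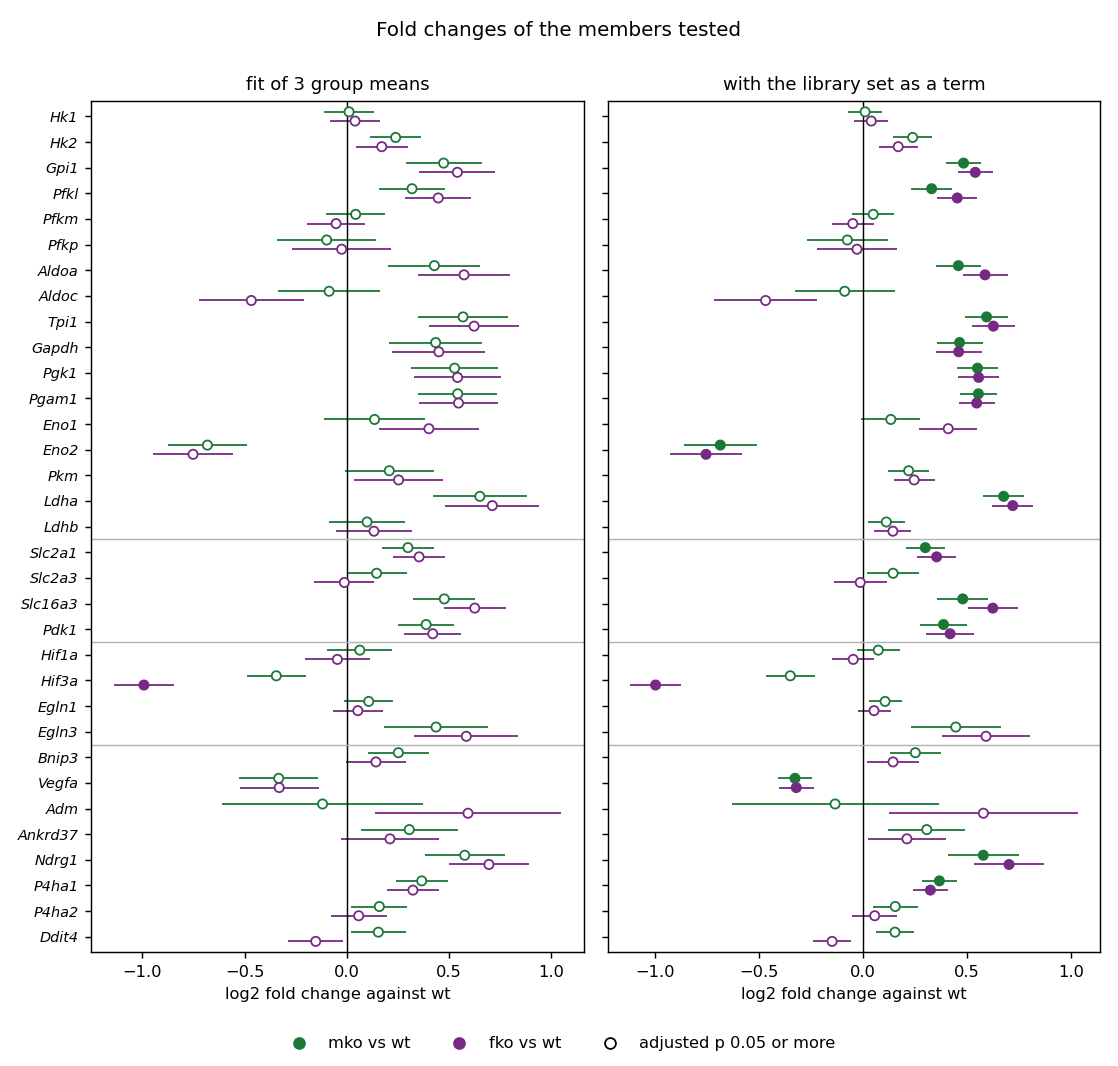
Log2 fold change of the 33 members tested, with SE, for mko and fko against wt in the fit of 3 group means (left) and with the library set as a term (right); filled points have an adjusted p under 0.05 over all 14521 genes. On the left only Hif3a in fko is filled, and on the right 13 members are filled as higher in each knockout.

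Of the transport and pyruvate entry genes, 3 of 4 stood above wt in every knockout library, beside 18.8% of all genes tested. Slc16a3, the monocarboxylate transporter that exports lactate, had 29.1 and 27.3 CPM in the mko libraries, 33.9 and 28.7 CPM in the fko libraries, and 21.5 and 19.0 CPM in the wt libraries. Its log2 fold change of 0.55 ± 0.13 in the mean of the knockouts missed the threshold (edgeR adjusted p = 0.0506) and passed with the set term (0.00591) and with DESeq2 (0.0282). Slc2a1, the widely expressed glucose transporter GLUT1, had 52.0 and 50.7 CPM in the mko libraries, 53.5 and 53.1 CPM in the fko libraries, and 44.3 and 39.2 CPM in the wt libraries. Pdk1, the kinase that shuts off pyruvate dehydrogenase, had 42.7 and 43.7 CPM in the mko libraries, 40.6 and 47.7 CPM in the fko libraries, and 34.9 and 31.1 CPM in the wt libraries. None of the 4 genes passed for the library set, for which 10 of the 17 enzymes did. The mean of the knockouts was 0.33 ± 0.11 above wt for Slc2a1 and 0.40 ± 0.12 for Pdk1 on the log2 scale, with edgeR adjusted p = 0.12 and 0.0944, or 0.0161 and 0.0151 with the set term. Slc2a3, the neuronal-type glucose transporter GLUT3, had 18.8 and 19.3 CPM in the mko libraries, 17.6 and 16.6 CPM in the fko libraries, and 17.1 and 17.3 CPM in the wt libraries, which overlapped, with a fold change of 0.07 ± 0.13.

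Hif3a, an alpha subunit whose short forms can restrain HIF-1 activity, was the one member that fell in fko in the fit of 3 group means. It had 40.2 and 35.0 CPM in the mko libraries, 22.2 and 25.8 CPM in the fko libraries, and 50.8 and 44.7 CPM in the wt libraries. Both fko libraries lay below both mko libraries, and these lay below both wt libraries. The log2 fold change was -0.99 ± 0.15 in fko against wt (edgeR adjusted p = 0.0277), -0.34 ± 0.15 in mko against wt (0.234) and -0.67 ± 0.12 in their mean (0.023). The direct difference, fko against mko, was -0.65 ± 0.15 with an unadjusted p of 0.00193 and an edgeR adjusted p of 1, so no difference between the knockouts passed, and fko and mko also differ in sex. It passed in 4 of 22 settings, those with the set term and without wt1, wt2, mko1 or mko2. The call in fko was kept in 18 of 22 settings and lost without mko1, mko2 or fko1 and in a fit of fko and wt alone; that in the mean of the knockouts was kept in 19 of 21 and lost without mko1 or mko2.

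Hif1a, the main oxygen-regulated alpha subunit, had 187 and 197 CPM in the mko libraries, 159.9 and 196 CPM in the fko libraries, and 165 and 203 CPM in the wt libraries, overlapping throughout, with a log2 fold change of -0.05 ± 0.16 in fko and 0.06 ± 0.16 in mko. HIF-1 alpha is controlled mainly at the protein level, which RNA does not show. Egln1, the prolyl hydroxylase PHD2 that acts as the main oxygen sensor, had 83.2 and 79.3 CPM in the mko libraries, 76.7 and 80.0 CPM in the fko libraries, and 74.3 and 76.7 CPM in the wt libraries and a fold change of 0.08 ± 0.10 in the mean of the knockouts (edgeR adjusted p = 0.643). Egln3, the hydroxylase PHD3 and itself a hypoxia-induced gene, had 4.90 and 4.997 CPM in the mko libraries, 5.94 and 5.04 CPM in the fko libraries, and 4.37 and 2.94 CPM in the wt libraries. All 4 knockout libraries were above wt1 for Egln3, on 46 to 91 reads a library, but the log2 fold change of 0.51 ± 0.22 did not pass in either fit (edgeR adjusted p = 0.19 and, with the set term, 0.0624).

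Of the 9 other hypoxia response genes 8 were tested, and 7 of these had a positive fold change in the mean of the knockouts. Their median was 0.22 on the log2 scale, and 51.1% of all genes were positive. None passed in the fit of 3 group means, and with the set term 2 of 8 tested rose and 1 fell in both fko and mko, beside 12.2% higher and 11.1% lower of all genes in fko and 12% and 12.7% in mko. Ndrg1, a stress-induced gene, had 10.96 and 12.46 CPM in the mko libraries, 12.3 and 13.2 CPM in the fko libraries, and 8.86 and 6.85 CPM in the wt libraries. P4ha1, the catalytic subunit of collagen prolyl 4-hydroxylase, had 90.6 and 91.7 CPM in the mko libraries, 90.4 and 86.6 CPM in the fko libraries, and 75.0 and 66.5 CPM in the wt libraries. In both genes all 4 knockout libraries exceeded wt, by 0.64 ± 0.17 for Ndrg1 and 0.34 ± 0.11 for P4ha1 in log2 fold change of the mean of the knockouts. The edgeR adjusted p was 0.0714 for Ndrg1 and 0.108 for P4ha1, or 0.0119 and 0.00794 with the set term. The related gene P4ha2 barely differed, at 31.2 to 36.8 CPM in the knockouts and 30.0 to 30.9 CPM in wt.

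Vegfa, the main angiogenic growth factor and a classical HIF target, ran against the enzymes. It had 95.4 and 74.9 CPM in the mko libraries, 77.1 and 93.4 CPM in the fko libraries, and 89.9 and 125 CPM in the wt libraries. In each genotype the library with more reads outside genes was the higher one, and mko1 and fko2 lay above wt1, so the groups overlapped. The log2 fold change was -0.33 ± 0.19 in fko and -0.33 ± 0.19 in mko (edgeR adjusted p = 0.351 and 0.346), and with the set term it fell by 0.32 and 0.33 (adjusted p = 0.0262 and 0.0232). Beside it, the 10 endothelial markers, all detected, summed to 37.7 to 43.2 CPM in mko, 42.4 to 46.2 CPM in fko and 34.3 to 34.7 CPM in wt libraries. A positive fold change was held by 7 of the 10 in fko, 4 in mko and 4 in the mean of the knockouts. Their medians were 0.31, -0.15 and -0.09, so the higher sum does not speak for each marker.

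Bnip3, a mitophagy receptor, had 39.0 and 43.8 CPM in the mko libraries, 35.2 and 41.6 CPM in the fko libraries, and 37.3 and 32.3 CPM in the wt libraries and overlapped. Ankrd37 ranged over 4.84 to 6.33 CPM in the knockouts and 4.16 to 5.32 CPM in wt. Ddit4, an inhibitor of mTORC1 signalling, lay at 72.6 and 82.4 CPM in mko, 62.2 and 63.1 CPM in fko and 74.8 and 64.6 CPM in wt. None of these 3 genes passed in either fit. Adm, the vasodilator adrenomedullin, rested on 9 to 26 reads a library, and Car9 on 0 to 9, which is too few to show a difference.

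Between the knockouts no member passed in fko against mko, in a contrast that uses no wt value and in which 0.0344% of all genes passed; 1 of 33 had an unadjusted p under 0.05, Hif3a, against 1.72% of all genes. DESeq2 also called 0, and the fit with the set term called 0 (0.0482% of all genes). The median fold change, fko against mko, was 0.03 for the enzymes and -0.05 for the other members, beside 0.02 for all genes. For Ldha it was 0.06 ± 0.23 and for Slc16a3 0.15 ± 0.15 (± SE), and the X-linked Pgk1 had 0.01 ± 0.21. The widest differences beside that of Hif3a were those of Adm at 0.71 ± 0.47 and Aldoc at -0.38 ± 0.26, both on few reads. Ddit4 followed at -0.31 ± 0.14, with both fko libraries below both mko libraries. Its unadjusted edgeR p was 0.0506, or 0.00856 with the set term, and it did not pass after adjustment in either fit.

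Other genes of the pathway were taken from lists. Of 18 other glycolysis genes, 13 were tested and 0 rose and 1 fell in the mean of the knockouts, where 1.07% of all genes rose and 4.04% fell. The 1 that fell was the hexokinase-like Hkdc1 (-1.66 ± 0.35, edgeR adjusted p = 0.0333). Hkdc1 was low throughout, at 0.749 and 0.443 CPM in the mko libraries, 0.391 and 0.517 CPM in the fko libraries, and 1.90 and 1.41 CPM in the wt libraries. With the set term, where 16.4% of all genes rose and 16.3% fell, 1 of the 13 rose, Slc16a1, and those that fell included Hkdc1, Eno3 and Pfkfb2. Of 34 other HIF target genes, 33 were tested and 1 rose and 1 fell, beside the same 1.07% and 4.04% of all genes. Ak4, an adenylate kinase of mitochondria, rose by 0.68 ± 0.14 (edgeR adjusted p = 0.0298) with 17.2 and 16.9 CPM in the mko libraries, 18.2 and 18.6 CPM in the fko libraries, and 11.6 and 10.6 CPM in the wt libraries. Cxcr4, a chemokine receptor of migrating crest cells, fell by 0.65 ± 0.15 (0.0447) with 18.6 and 16.8 CPM in the mko libraries, 16.3 and 18.7 CPM in the fko libraries, and 23.9 and 31.5 CPM in the wt libraries. In both genes the knockout libraries lay wholly apart from wt. With the set term 4 of these 33 rose and 3 fell, beside the same 16.4% and 16.3% of all genes, and their median was 0.07. None of the 11 HIF regulators passed; Arnt2, a partner of the alpha subunits, had -0.40 ± 0.12 (adjusted p = 0.0973) in the mean of the knockouts. With the set term 4 of the 11 rose and 2 fell, again beside 16.4% and 16.3% of all genes. Those that rose were Vhl, which tags hydroxylated alpha subunits for destruction (0.30, edgeR adjusted p = 0.0135), and its complex partners Tceb1, Tceb2 and Rbx1 (adjusted p = 0.0312, 0.0113 and 0.0286), and those that fell were Arnt2 (0.00334) and Cited2, an inhibitor of HIF-1 transactivation (0.0299).

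Genes of pyruvate dehydrogenase and the tricarboxylic acid cycle, which burn the pyruvate that glycolysis makes, were positive too. All 21 had a positive fold change in the mean of the knockouts, with a median of 0.23, where 51.1% of all genes were positive, with a median of 0.01. In the fit of 3 group means 0 passed, and 13 rose and 0 fell with the set term, beside 16.4% and 16.3% of all genes. Pdha1, the catalytic subunit that Pdk1 phosphorylates, had the smallest p, at 0.35 ± 0.11 (edgeR adjusted p = 0.104, or 0.00622 with the set term). All 7 genes of the pentose phosphate pathway were likewise positive, with a median of 0.31, and 0 passed without the set term. With the term 6 rose, beside the same 16.4% of all genes, among them transketolase Tkt (0.45 ± 0.18, edgeR adjusted p = 0.172 without the term and 0.00444 with it). Of 7 gluconeogenesis genes 3 were tested and 0 passed, and with the set term 1 rose, pyruvate carboxylase Pcx (0.35, 0.0347). In fko and in mko taken singly, no gene of these lists passed in the fit of 3 group means.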

How the data were processed

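The authors deposited one table of raw read counts per gene for 6 RNA libraries. The submitters' processing notes name HTSeq, TopHat2 with Bowtie2, Trimmomatic and SAMtools, without versions, and build mm9; gene annotation and strand setting of the counting are not given in the sources used here, so reads of overlapping and antisense genes are uncertain, although the kit was stranded, per the labels. The deposited table ends in HTSeq's summary lines (38.6% to 45.6% of the reads), which were left out of library sizes and tests. Chromatin profiles of the series were not used here.

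Counts were filtered with filterByExpr, scaled by TMM and tested with edgeR 4.0.16's quasi-likelihood test in 1 fit of 3 group means over 14521 genes (R 4.3.3; Benjamini-Hochberg over all genes, threshold 0.05). SE is the absolute log2 fold change over the root of F. Alternatives were other scalings, DESeq2 1.42.0, limma-voom 3.58.1, no filter, a replicate block, fits of the compared groups alone, a term for the library set, and each library left out. The script was tested on simulated data. Pkm2 was read as Pkm and Tigar under a synonym. Values in all libraries are given for members that passed in either fit or had 1 of the 4 smallest p-values of their class, and for some isozymes and low genes chosen after their values were seen; of each list, genes with the 4 smallest p-values or those counted, except 1 gene that is not reported here. Members and lists were chosen with earlier results of these data known. Depth limits low genes most.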

Additional observations from a re-analysis of the deposited data

How the results depend on the processing

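Counts of members past the threshold depended more on the set term and on single libraries than on scaling. The share of all genes past it moved as well. In the mean of the knockouts against wt, 1.07% of all genes were higher in the fit of 3 group means and 16.4% with the set term. Shares for the other settings are not set beside the counts below, so those counts do not single out the members. Against 1 (fko against wt), 0 (mko against wt) and 2 (mean of the knockouts against wt), the set term gave 16, 15 and 16, and DESeq2 gave 2, 0 and 8. Without the filter on low counts the mean of the knockouts gave 1, and a fit of fko and wt alone gave 0. Leaving out 1 library gave 0 to 5, 0 to 3 and 0 to 12 without the set term (in the mean 12 without wt1, 8 without fko2, 1 without wt2 and 0 without mko1 or mko2) and 1 to 20, 3 to 17 and 5 to 19 with it; fko against mko gave 0 and 0 to 4. With the set term, leaving out mko1, mko2, fko1, fko2, wt1 and wt2 in turn gave 20, 20, 1, 7, 14 and 2 in fko against wt, 14, 17, 13, 13, 11 and 3 in mko against wt, 19, 19, 16, 14, 16 and 5 in the mean, and 4, 1, 0, 0, 1 and 1 in fko against mko.

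Median log2 fold changes of the enzymes stayed positive, at 0.19 to 0.66 (fko), 0.13 to 0.41 (mko) and 0.18 to 0.55 (mean) when 1 library was left out and 0.28 to 0.45, 0.17 to 0.35 and 0.21 to 0.32 with the set term as well. Those of the other members were 0.072 to 0.23, 0.15 to 0.31 and 0.12 to 0.28, or 0.087 to 0.20, 0.17 to 0.30 and 0.14 to 0.25 (0.16 without mko2). Totals without ribosomal RNA genes and without TMM shifted the median of all genes to -0.068 in the mean of the knockouts and the other members' medians to 0.094, 0.14 and 0.14.

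In the mean of the knockouts direction turned for 4 members on those totals, Hk1 (-0.052), Slc2a3 (-0.011), Hif1a (-0.069) and Ddit4 (-0.075), and for 2 with upper quartile scaling, Hif1a (-0.00085) and Ddit4 (-0.010). Pfkm (-0.0049) turned with the set term (0.00072) and in other settings. Leaving out 1 library turned 0 to 4 members, or 1 to 5 with the set term, among them Hif1a without wt1 (-0.13, or -0.076 with the set term), without mko2 (-0.0079, -0.078) and without fko2 (-0.086, -0.053), and Eno1 turned with Gm5506 added (-2.12, or -2.04 with the set term). The cause was not tested. Replicate numbers did not pair the libraries: same-numbered deviations correlated at 0.43 for fko and wt but -0.24 for mko and wt and -0.23 for fko and mko. A replicate block gave 1, 0, 3 and 0 members past the threshold, Slc16a3 being added (edgeR adjusted p = 0.0419). Crossing mko with wt is the set term. The mean of the knockouts has no fit of the compared groups alone.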

Other observations

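Genes of the integrated stress and unfolded protein response, some of which also answer to low oxygen and low nutrients, were measured as a neighbouring programme. All 15 were tested, and 0 passed in the mean of the knockouts against wt in the fit of 3 group means, with a median log2 fold change of 0.19 beside 0.01 for all genes. With the library set as a term 7 rose and 1 fell, where 16.4% of all genes rose and 16.3% fell. Those that rose were Xbp1 (0.56 ± 0.08, edgeR adjusted p = 0.0024), Asns (0.58 ± 0.08, 0.00191), Sdf2l1 (0.49 ± 0.10, 0.00745), Herpud1 (0.46 ± 0.09, 0.00695), Phgdh, Psat1 and Pdia4. The one that fell was Atf4 (-0.23 ± 0.06, 0.0258), the transcription factor that drives Asns, Phgdh and Psat1; its protein level is set largely by translation, which RNA counts do not show.

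The 14 immediate early and dissociation genes summed to 709 to 880 CPM in mko, 743 to 791 CPM in fko and 734 to 831 CPM in wt libraries and overlapped. Haemoglobin and other erythroid genes summed to 1365 CPM in mko2 and to 325 CPM in mko1, to 405 to 445 CPM in fko libraries and to 312 to 517 CPM in wt libraries. Macrophage genes summed to 7.34 to 7.69 CPM in mko, 6.26 to 8.01 CPM in fko and 10.9 to 11.1 CPM in wt libraries, and skeletal muscle genes to 6.54 to 7.46 CPM in mko, 5.28 to 5.62 CPM in fko and 8.55 to 8.70 CPM in wt libraries. Epithelial genes summed to 22.7 to 24.3 CPM in mko, 19.1 to 20.0 CPM in fko and 15.5 to 24.2 CPM in wt libraries. Their part in the values of the 34 genes was not tested.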
